A study of Nicotiana tabacum with 6 samples.

Results

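In tobacco BY-2 cells carrying an estradiol-inducible Arabidopsis PIN5 gene (AtPIN5), 202 of the 69491 tobacco gene models were far higher in every induced library than in any uninduced library while still being detected without induction. They were chosen on their measured levels. Each had at least 1 read over the 3 DMSO libraries, at least 5 TPM in every EST library, and a lowest EST level at least 8 times its highest DMSO level. TPM is a relative transcript abundance, a level corrected for the effective length of the gene model and for library size. Gene models in the strict order EST 1 below EST 2 below EST 3, which is the order of AtPIN5 itself, were left out. The 202 members are 0.291% of the 69492 entries measured, the last entry being AtPIN5. Since the contrast of EST with DMSO chose them, the height of their EST levels is a description and not a finding, and the results below turn on how the members differ among themselves and between libraries of 1 group.

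The study measured bulk RNA by RNA-seq in 6 libraries from 1 stable transgenic line of BY-2 (Nicotiana tabacum cv. Bright Yellow 2). BY-2 is a dividing suspension culture grown in the dark on Murashige and Skoog medium with the synthetic auxin 2,4-D. The 3 EST libraries came from cells given 1 µM β-estradiol in DMSO when they were subcultured, and the 3 DMSO libraries from cells given the solvent alone. Treatment lasted 48 h, cells were 2 days old, and the culture was passed on every 7 days. Every library therefore carries the transgene and was grown with 2,4-D, and no line without the transgene was treated with estradiol among the libraries analysed here. A difference between EST and DMSO cannot be told apart from an effect of β-estradiol itself. DMSO 1, 2 and 3 and EST 1 are labelled with the company Novogene, and EST 2 and 3 with the company IAB. The library numbers lie close together for DMSO 1 and EST 1, for DMSO 2 and 3, and for EST 2 and 3. Company is thus not the only grouping of the libraries, and EST 2 and 3 are far in number from DMSO 2 and 3. The numbers are not read as batches here. The labels' extraction entry names a plant RNA kit and a sequencing company as the performer. Within the EST group, the company and the replicate can therefore not be told apart.

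Auxin is a plant hormone that controls division, elongation and the expression of many genes, and cultured BY-2 cells depend on auxin in their medium. PIN proteins carry auxin across membranes. PIN5 of Arabidopsis lies at the endoplasmic reticulum, where it is thought to move auxin between the cytosol and the lumen, and it is known for its influence on auxin homeostasis within the cell. No gene names go with the tobacco identifiers here, so no function can be given to any member. The 2 members whose identifiers are given were picked by a rule, and the others are described by the length of the gene model.

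The libraries held 11776234 to 17281241 estimated reads. AtPIN5 stood at 1.51, 0.387 and 0.942 TPM in DMSO 1, 2 and 3 and at 23.99, 95.4 and 341 TPM in EST 1, 2 and 3. Its lowest EST level was 15.8 times its highest DMSO level, and 103 of the 202 members had a larger such ratio. The transgene thus differed strongly among the EST libraries, and EST 1, in which AtPIN5 was lowest, had 128 members above AtPIN5, whereas EST 3 had 3.

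The members were rare transcripts without estradiol and moderately abundant ones with it. Their median level was 0.821, 0.264 and 0.216 TPM in DMSO 1, 2 and 3 and 38.3, 27.9 and 22.0 TPM in EST 1, 2 and 3. Placed among all entries detected in a library, the median member lay above 24.6%, 10.7% and 9.76% of them in DMSO 1, 2 and 3 and above 88.9%, 86.4% and 83.3% in EST 1, 2 and 3. No member reached 100 TPM in a DMSO library, while 55, 27 and 16 exceeded it in EST 1, 2 and 3. In a bulk sample, more cells with a transcript and more transcript per cell cannot be told apart.

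**Figure D1:**
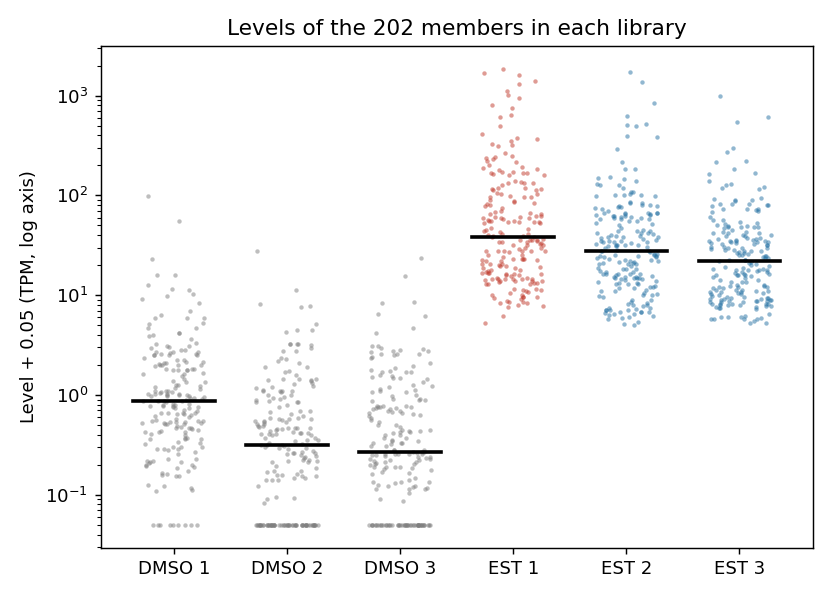
Levels of the 202 members in each library, as TPM plus 0.05 on a log axis, 1 point per member, with a bar at the median and EST 1 (Novogene) in another colour than EST 2 and 3 (IAB). The row of points at the bottom of each DMSO column holds members with no signal there, and the medians of EST 1, 2 and 3 are 38.3, 27.9 and 22.0 TPM.

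Summed over all 202 members, the level was 517, 179 and 183 TPM in DMSO 1, 2 and 3 and 27224, 14791 and 9402 TPM in EST 1, 2 and 3. As a share of all estimated reads, the members held 0.0528%, 0.0159% and 0.0148% in the DMSO libraries and 2.25%, 1.25% and 0.852% in the EST libraries. The sum in EST 1 was thus larger than the sums of EST 2 and EST 3 together. A few members held much of it, since the 10 members with the highest median EST level made up 33.8%, 48.3% and 37.1% of the summed TPM in EST 1, 2 and 3.

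The ratio on which members were chosen, the lowest EST level over the highest DMSO level, ran from 8.01 to 589 with a median of 16.4. Its quartiles were 10.8 and 35.0. It reached 16 in 102 members, 32 in 60, 64 in 25 and 100 in 11. The last gene model inside the rule had a ratio of 8.01 and the first one outside it 7.99, and on the other limit the lowest EST level was 5.01 TPM just inside and 4.98 TPM just outside. The members are the upper edge of a continuous cloud and are not separated from it by a gap.

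**Figure D2:**
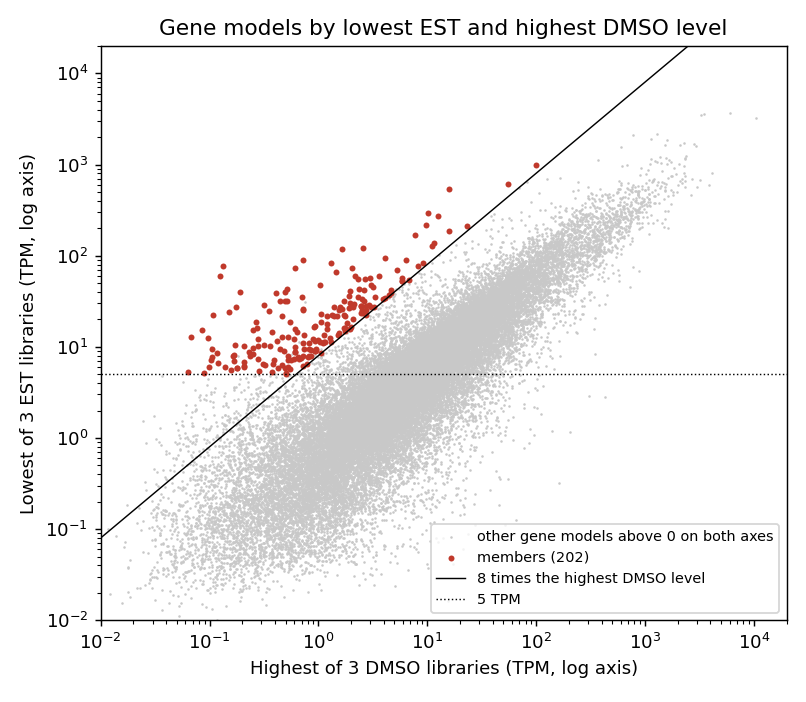
Each gene model by its highest DMSO level (x axis) and its lowest EST level (y axis), both in TPM on log axes, with the 202 members in red. The solid line marks 8 times the highest DMSO level and the dotted line 5 TPM, and members reach from the lines up to a ratio of 589 without a gap to the gene models below.

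The member with the most reads without estradiol was Nitab4.5_0015635g0010.1, a gene model of 1164 bases. It had 2470, 524 and 509 reads in DMSO 1, 2 and 3 and 20541, 47719 and 24759 reads in EST 1, 2 and 3. Its level was 99.5, 27.9 and 23.8 TPM in the DMSO libraries (50.4 ± 42.6, SD, n = 3) and 1387, 1706 and 995 TPM in the EST libraries (1362 ± 356, SD, n = 3). DMSO 1 stood well above the other DMSO libraries, EST 2 was the highest and EST 3 the lowest EST library, and the groups did not overlap.

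The member with the next highest median EST level was Nitab4.5_0013087g0020.1, a short gene model of 510 bases. Its level was 15.8, 1.67 and 3.05 TPM in DMSO 1, 2 and 3 (6.84 ± 7.79, SD, n = 3), from 93, 7 and 15 reads. It stood at 1859.7, 1369 and 539.7 TPM in EST 1, 2 and 3 (1256 ± 667, SD, n = 3), from 10139, 6303 and 2266 reads. Here EST 1 was the highest and EST 3 the lowest library, and the lowest EST level was 34.2 times the highest DMSO level, against 9.997 times in Nitab4.5_0015635g0010.1.

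**Figure D3:**
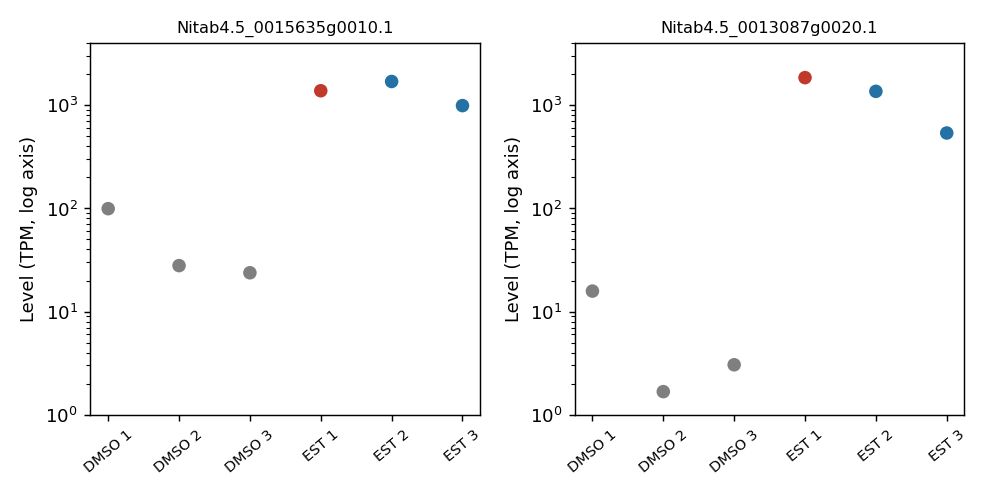
Levels of the members Nitab4.5_0015635g0010.1 and Nitab4.5_0013087g0020.1 in each library, in TPM on a log axis, 1 point per library (DMSO grey, EST 1 red, EST 2 and 3 blue). DMSO 1 is the highest DMSO library for both, at 99.5 and 15.8 TPM, and the EST libraries lie above all DMSO libraries.

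The other members with a median EST level of at least 500 TPM repeated the high level in DMSO 1 but not the same order of the EST libraries. Not every abundant member did so, as an exception given below was lowest in DMSO 1. A gene model of 1080 bases stood at 55.1, 11.4 and 8.47 TPM in DMSO 1, 2 and 3 and at 798, 628 and 607 TPM in EST 1, 2 and 3. One of 888 bases stood at 12.6, 1.55 and 2.47 TPM in the DMSO libraries and at 1609.7, 521 and 275 TPM in the EST libraries. One of 458 bases stood at 10.1, 0.648 and 1.64 TPM and then at 634, 839.6 and 295 TPM. The first was nearly level over the EST libraries, the second was highest in EST 1, and the last was highest in EST 2.

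The control level behind a member was thin in many cases. Reads summed over the 3 DMSO libraries ran from 1 to 3503 with a median of 18, and 129 members had at least 10 and 19 had at least 100. Reads were present in every DMSO library for 120 members. Another 36 had reads in a single DMSO library, namely 27 in DMSO 1, 4 in DMSO 2 and 5 in DMSO 3. Across all entries with reads in a single DMSO library, 47.0% of 4454 had them in DMSO 1.

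For 15 members the detectable control level was 1 read, and for 36 it was 1 to 3 reads. The extreme ratio belonged to one of them, a gene model of 614 bases at 0, 0 and 0.132 TPM in the DMSO libraries and 604, 77.9 and 129 TPM in the EST libraries. The ratios of pooled reads, scaled to library totals, ran from 47.9 to 4646 in these 36 members, and the lower ends of their exact Clopper-Pearson 95% intervals ran from 12.9 to 833. In all 202 members the interval lay above 8, which covers counting error only and follows in part from how they were chosen. The size of a ratio is thus poorly known where the control rests on 1 to 3 reads. The intervals pool libraries and use the reads on which the members were chosen, so their lower ends do not bound the true ratio.

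The rule ties the EST level of a member to its control level, since the lowest EST level must be at least 8 times the highest DMSO level, and the values by control reads are given as a description. The median of the median EST level was 14.9 TPM in the 36 members with 1 to 3 DMSO reads, 27.8 TPM in the 147 with 4 to 99, and 90.1 TPM in the 19 with at least 100. The median ratio of lowest EST to highest DMSO level went the other way, at 48.8, 14.8 and 11.01, and its denominator is that same control level. Gene models were also longer in that order, with median lengths of 586.5, 819 and 1164 bases.

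The members did not have an even control level. Among the 129 with at least 10 DMSO reads, DMSO 1 was above both other DMSO libraries in 107 (82.9%) and below both in 11. DMSO 1 was a median of 2.51 times the mean of DMSO 2 and 3 in these members, with quartiles of 1.66 and 5.56. Over all 37125 entries with at least 10 DMSO reads, DMSO 1 was the highest in 42.1%, and the median ratio was 0.987. The ratio of DMSO 2 to DMSO 3 had a median of 1.11 with quartiles of 0.738 and 1.66 in the 112 of these members with reads in both, and a median of 0.992 with quartiles of 0.873 and 1.13 in 36623 of all entries. In all 37125 entries the ratio of DMSO 1 to the mean of DMSO 2 and 3 had quartiles of 0.698 and 1.38. The rule uses the highest DMSO level, whichever library holds it, and so sets no order among the DMSO libraries. It does make DMSO 1 the library that limits entry, and without DMSO 1 the same rule finds 422 gene models.

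The exceptions were few. A gene model of 348 bases stood at 5.14, 7.76 and 6.39 TPM in DMSO 1, 2 and 3 and at 232, 295 and 169.6 TPM in the EST libraries. One of 756 bases was lowest in DMSO 1, at 1.02, 2.70 and 2.52 TPM, and reached 952, 55.3 and 81.4 TPM in EST 1, 2 and 3. Both were lowest in DMSO 1, and their EST libraries lay near each other in the first and far apart in the second.

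DMSO 1 also stood out in gene models with smaller rises. Gene models outside the strict order with at least 10 DMSO reads and at least 5 TPM in every EST library were split by the ratio of lowest EST to highest DMSO level. DMSO 1 was above both other DMSO libraries in 54.1% of 8039 gene models with a ratio under 1, in 75.7% of 2762 with 1 to 2, in 80.2% of 501 with 2 to 4, in 85.6% of 209 with 4 to 8, and in 82.9% of the 129 members. The pattern is therefore shared with most gene models that were higher in all EST libraries and is not particular to the members. Its cause was not tested.

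**Figure D4:**
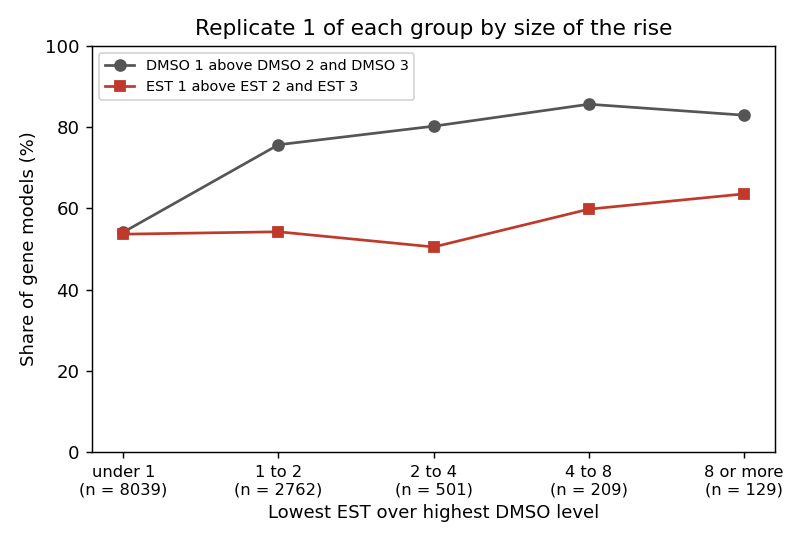
Share of gene models (y axis, %) in which DMSO 1 was the highest DMSO library (grey) or EST 1 the highest EST library (red), by the ratio of lowest EST to highest DMSO level (x axis). The DMSO 1 share goes from 54.1% to 82.9%, while the EST 1 share is 50.5% to 54.2% up to a ratio of 4, 59.8% at 4 to 8 and 63.6% in the members.

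Within the EST group, the members were most often highest in EST 1. Of the 202, 131 (64.9%) had their highest TPM in EST 1, 62 (30.7%) in EST 2 and 9 (4.46%) in EST 3, while 104 were lowest in EST 3, 70 in EST 2 and 28 in EST 1. By full order from lowest to highest, 70 members ran EST 3, EST 2, EST 1 and 61 ran EST 2, EST 3, EST 1. A further 34 ran EST 3, EST 1, EST 2, then 28 ran EST 1, EST 3, EST 2, and 9 ran EST 2, EST 1, EST 3. The excluded order removed 12 gene models from 214 that met the rest of the rule, and 131 of those 214 are 61.2%. As a background, 11778 gene models outside that order had at least 5 TPM in every EST library, and EST 1 was the highest in 54.0% of them, EST 2 in 35.3% and EST 3 in 10.8%.

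The excess of EST 1 was also a matter of size. The level in EST 1 was a median of 1.62 times the mean of EST 2 and 3 in the members, with quartiles of 1.01 and 2.88 and a range of 0.193 to 25.3. The background median was 1.16, with quartiles of 0.864 and 1.59. EST 1 was at least 2 times the mean of the others in 76 members (37.6%) against 13.9% of the background. It was at least 4 times that mean in 33 (16.3%) against 2.25%, and at least 8 times in 7 (3.47%) against 0.425%. In the opposite direction, 14 members (6.93%) had EST 1 at most 1/2 of the mean of EST 2 and 3, against 5.86% of the background. It was at most 1/4 of that mean in 3 members (1.49%) against 0.654%.

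The gene models just below the limit lay between the members and that background. Among those with at least 10 DMSO reads and a ratio of lowest EST to highest DMSO level of 4 to 8, EST 1 was the highest EST library in 59.8% and a median of 1.324 times the mean of EST 2 and 3. The 129 members with at least 10 DMSO reads had 63.6% and 1.67, and the 501 gene models with a ratio of 2 to 4 had 50.5% and 1.165. No test of these differences was made, so the excess of EST 1 is not shown to be particular to the members.

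**Figure D5:**
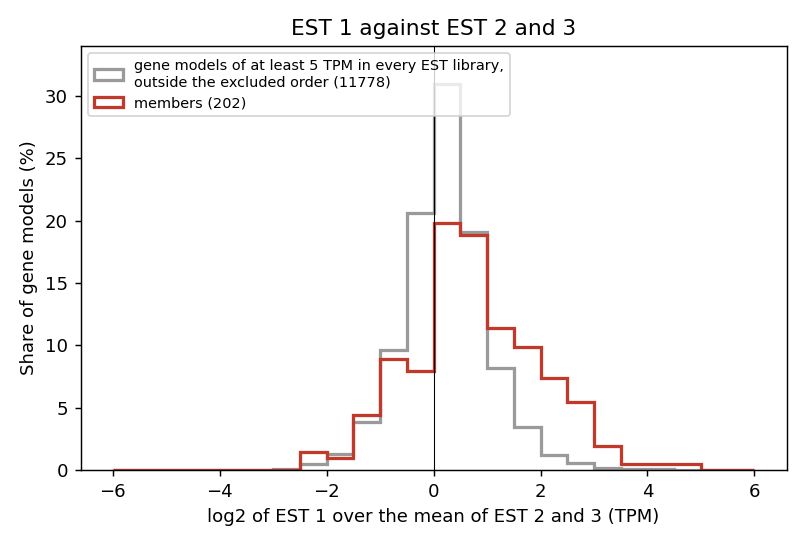
Distribution of the log2 ratio of EST 1 to the mean of EST 2 and 3 (x axis, from TPM) as a share of gene models (y axis, %), for the 202 members (red) and for 11778 gene models of at least 5 TPM in every EST library outside the excluded order (grey). EST 1 was at most 1/2 of that mean in 6.93% of the members and 5.86% of the others. The members extend further right, with 37.6% against 13.9% at a log2 ratio of 1 or more.

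The EST 1-high members formed a tail of large values in a single library. The gene model at the end of it, of 258 bases, stood at 1.79, 0 and 2.36 TPM in DMSO 1, 2 and 3 and at 1293, 59.0 and 43.2 TPM in EST 1, 2 and 3. One of 936 bases stood at 2.58, 1.04 and 0.668 TPM and then at 1692, 496 and 123 TPM. One of 1614 bases stood at 0.613, 0.416 and 0.325 TPM and then at 310.02, 15.6 and 19.1 TPM. In each, EST 2 and 3 were also far above every DMSO library, as the rule requires, but EST 1 was several times higher again.

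The 33 members with EST 1 at least 4 times the mean of EST 2 and 3 had median levels of 0.996, 0.370 and 0.325 TPM in DMSO 1, 2 and 3 and of 167, 27.8 and 29.6 TPM in EST 1, 2 and 3. The 14 members with EST 1 at most 1/2 of that mean had medians of 0.926, 0.240 and 0.194 TPM in the DMSO libraries and of 17.7, 77.9 and 33.2 TPM in the EST libraries. The median control levels of both classes were close to those of all members, and their EST levels differed as the split by EST 1 requires.

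Among the EST 1-low members, a gene model of 525 bases stood at 0.944, 0.442 and 0.565 TPM in DMSO 1, 2 and 3 and at 9.45, 81.0 and 16.8 TPM in EST 1, 2 and 3. One of 746 bases, with 1 DMSO read in all, stood at 0.108, 0 and 0 TPM and then at 22.3, 101 and 92.2 TPM. The first was high in EST 2 alone, while the second was high in EST 2 and EST 3. EST 3 was the highest library for few members, one being a gene model of 1941 bases at 5.90, 4.39 and 4.65 TPM in the DMSO libraries and 69.7, 53.3 and 163 TPM in the EST libraries.

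The members varied more across the EST libraries than other gene models of at least 5 TPM. The highest EST level was a median of 2.58 times the lowest, with a range of 1.19 to 29.96, against a background median of 1.65. It was under 2 times in 55 members (27.2%) against 68.1% of the background. The steadiest member was a gene model of 926 bases at 5.23, 6.21 and 5.76 TPM in EST 1, 2 and 3, with 0.0628, 0 and 0 TPM in the DMSO libraries. EST 2 and 3, which share a company, had a median ratio of EST 2 to EST 3 of 1.27 in the members and 1.07 in the background, and EST 2 was above EST 3 in 65.3% of the members and 64.5% of the background.

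The excess of EST 1 was present in short and long gene models. Its median ratio to the mean of EST 2 and 3 was 1.42 in 60 members under 600 bases, 1.88 in 93 members of 600 to under 1200 bases and 1.58 in 49 longer members. The background medians in the same classes were 1.24, 1.09 and 1.19. The members lay above the background in each class.

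The ratio of EST to DMSO was also taken between libraries of the same replicate numbers. The summed TPM of the members in EST 1 was 52.7 times that in DMSO 1, and the sum over EST 2 and 3 was 66.8 times that over DMSO 2 and 3. Without the 10 most abundant members these ratios were 66.7 and 59.2, so their order depends on a few members. Among 166 members with reads in DMSO 1 and in DMSO 2 or 3, the median ratio was 43.5 for EST 1 over DMSO 1 and 71.1 for EST 2 and 3 over DMSO 2 and 3, and the latter was the larger in 109 members and the former in 57.

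Statistical tests were run on the rounded read estimates of all 33956 entries with enough reads, all 202 members among them, using edgeR's quasi-likelihood test with Benjamini-Hochberg adjustment and an adjusted p threshold of 0.05. With the company as a covariate, the treatment term sets EST 1 alone against the 3 DMSO libraries, with the spread of EST 1 assumed to be that of the other groups. In that term all 202 members were called higher in EST, where 13.4% of all entries tested were called in that direction. Their log2 fold changes ran from 3.45 to 13.2 with a median of 6.52, at adjusted p-values of 0.000452 to 0.0255 from edgeR. In the pooled fit with no company term, all 202 were again called, beside 7.94% of all entries, with log2 fold changes of 3.42 to 11.9, a median of 5.95 and edgeR adjusted p-values of 0.00544 to 0.0421. These counts follow from the choice of the members on the same contrast and are read no further. The pooled fit also mixes company with treatment, since the IAB libraries are in the EST group alone. In the pooled fit without DMSO 2, edgeR called 0 members and 0% of all 35553 entries tested, while all 202 members had an unadjusted p under 0.05 and their median log2 fold change was 5.61. Without DMSO 3 it called 1 member and 0.00283% of all entries, with a median of 5.69. Without EST 2 it called 174 members and 1.99% of all entries. Without DMSO 1, which keeps DMSO 2 and 3, it called 197 members and 3134 of all 35447 entries, with a median of 6.95. The largest losses of calls thus came without DMSO 2 or without DMSO 3, for all entries as for the members. The members' fold changes moved little there. The edgeR calls of the pooled fit therefore depended on counting DMSO 2 and DMSO 3, which are alike, as separate replicates.

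For Nitab4.5_0015635g0010.1 the log2 fold change was 4.56 ± 0.74 (SE) with the company term (edgeR adjusted p = 0.0119) and 4.77 ± 0.65 (SE) in the pooled fit (edgeR adjusted p = 0.0112). For Nitab4.5_0013087g0020.1 it was 8.47 ± 1.03 (SE) with the company term (edgeR adjusted p = 0.00565) and 7.56 ± 1.12 (SE) in the pooled fit (edgeR adjusted p = 0.0128). Both values are descriptions, since the same contrast chose the members, and the value with the company term rests on EST 1 alone.

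The difference of EST 2 and 3 from EST 1 was taken from the company term of the same edgeR fit. It sets EST 2 and 3 against EST 1 alone, so EST 1 has no replicate in it and is assumed to vary like the other groups, and its calls compare these libraries. In that term 27 members (13.4%) were called lower in the IAB libraries and 0 higher, where 2.63% of all entries tested were called lower and 1.52% higher. At an unadjusted edgeR p under 0.05, 76 members were lower and 1 was higher. The median log2 difference of the members was −1.10, against 0.03 over all entries tested, and 34 of the 202 lay above 0. The rule leaves out 1 of the orders with EST 1 lowest, which removes candidates for a higher level in IAB, so this split is a description.

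The 27 members called lower in IAB had log2 differences of −4.02 to −1.75. Their levels were 13.0 to 1293 TPM in EST 1, with a median of 167, and 6.34 to 103 TPM as the mean of EST 2 and 3, with a median of 27.7. The 756-base gene model above had the log2 difference of −4.02, at an edgeR adjusted p of 0.0113. EST 2 and EST 3 lay within 2 times of each other in 26 of the 27, which the test itself favours, since a small spread between them makes a call more likely. In TPM, EST 1 was 1.28 to 25.3 times the mean of EST 2 and 3 in these 27, with a median of 5.52. The lowest of these ratios was a gene model of 384 bases at 35.5, 29.9 and 25.4 TPM, which was called on its read counts although its TPM values, corrected for effective length, were close.

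For Nitab4.5_0015635g0010.1 the log2 difference of the IAB libraries from EST 1 was 0.30 ± 0.86 (SE, edgeR adjusted p = 0.844), and for Nitab4.5_0013087g0020.1 it was −1.78 ± 1.00 (SE, edgeR adjusted p = 0.285). Neither of the members with the highest EST levels thus passed the test.

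The company term depended on the model. With DESeq2 in place of edgeR, 42 members were called lower and 1 higher in IAB, where 6.04% and 5.98% of all entries were called. With the replicate number as a block in edgeR, the company term is another quantity. It sets EST 2 and 3 over DMSO 2 and 3 against EST 1 over DMSO 1, and is not a difference of levels within EST. In it 5 members were called lower and 6 higher, where 0.742% and 0.913% of all entries were called. Its median over the members was 0.57 on the log2 scale, with 126 above 0. That fit takes the excess of DMSO 1 over DMSO 2 and 3 as a replicate difference and removes it from EST 1 as well. For Nitab4.5_0015635g0010.1 the company term with the block was 2.25 ± 0.31 on the log2 scale (SE). Its level was 1387 TPM in EST 1 and 1706 and 995 TPM in EST 2 and 3. The block fit estimates nearly as many terms as there are libraries. Its SE and calls therefore rest largely on the spread shared across entries and are not comparable to those of the main fit. For scale, in the 129 members with at least 10 DMSO reads DMSO 1 was a median of 2.51 times the mean of DMSO 2 and 3, and EST 1 a median of 1.67 times the mean of EST 2 and 3.

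The calls on the company term also moved with single libraries, for all entries as for the members. Without DMSO 1, 82 members were called lower in IAB, where 11.4% of all entries were called lower. Without DMSO 2 or DMSO 3 there were 14 or 16, where 0.771% or 0.834% of all entries were called lower. Without EST 2 or EST 3 edgeR called no member and 0% of all entries in either direction, with 68 or 53 members lower and 2 or 7 higher at an unadjusted p under 0.05. The single IAB library left was then assumed to vary like the other groups, and the median log2 difference of the members was −1.35 or −0.99. With the effective length of each library as an offset, 25 members were called lower and 1 higher, where 3.87% and 2.52% of all entries were called, and the median log2 difference was −0.81.

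The members were somewhat short gene models. Their median length was 809 bases, with quartiles of 540 and 1163 and a range of 195 to 2645, against 901 bases over all entries and 1141 bases in the background of at least 5 TPM in every EST library. Of all lengths, 83.7% are multiples of 3, as coding lengths would be, but no annotation was at hand to check this. Short models reach 5 TPM with few reads, and 34 members had a lowest EST level under 5 CPM (reads scaled to the library total), 24 of them under 600 bases. With CPM in place of TPM in the rule, 180 gene models qualify, of which 147 are members.

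Tobacco is an allotetraploid with many near-identical gene copies, and Salmon divides reads among entries that share sequence. An estimate that is a whole number, within 0.0015 reads, in every library has no sign of such division. That held for 67 members (33.2%), against 8.01% of the background and 52.6% of all entries. An estimate of 0 reads also counts as whole, which raises the share among entries with few or no reads. In the EST libraries alone, 35.1% of the members, 14.7% of the background and 57.9% of all entries were whole. The share whole in every library was smaller where control reads were more, as 24 of the 36 members with 1 to 3 DMSO reads, 42 of the 147 with 4 to 99 and 1 of the 19 with at least 100 were whole throughout. Nitab4.5_0015635g0010.1 and Nitab4.5_0013087g0020.1 were not whole, so their levels may include reads of close copies. Of the 27 members called lower in IAB, 11 were whole throughout.

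The identifiers hold a scaffold number and a gene number, read here from their form alone. The 202 members carried 196 different scaffold numbers, and 6 numbers held 2 members each. In 2 of these pairs the members had neighbouring gene numbers. One pair, of 528 and 444 bases, stood at 2.64, 0.870 and 1.49 TPM and at 2.96, 0 and 0.300 TPM in DMSO 1, 2 and 3. In EST 1, 2 and 3 this pair stood at 32.1, 102 and 34.1 TPM and at 58.9, 147 and 56.5 TPM.

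The other pair, of 1084 and 2228 bases, stood at 1.05, 0.749 and 0.219 TPM and at 0.493, 0.244 and 0.380 TPM in the DMSO libraries. In EST 1, 2 and 3 it stood at 13.8, 32.1 and 8.52 TPM and at 8.56, 27.98 and 5.82 TPM. All 4 gene models of these pairs were highest in EST 2, the order of a minority of the members. Gene models next to a member that were not members themselves, with a mean level of at least 1 TPM, numbered 161. Their median log2 ratio of mean EST to mean DMSO level, with 0.5 TPM added to both, was 0.18, against 0.06 for all 32976 non-member gene models of that level. In 37 of them (22.98%) that ratio was over 2-fold, against 16.2% of all non-members.

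Close to the members by rule were 12 gene models left out for their order and 27 left out because they had no DMSO read. The 12 had median levels of 0.507, 0.256 and 0.255 TPM in DMSO 1, 2 and 3 and of 9.78, 19.3 and 55.1 TPM in EST 1, 2 and 3, so their control levels resembled those of the members. The 27 had medians of 20.7, 12.0 and 12.3 TPM in EST 1, 2 and 3 and a median length of 297 bases, and EST 1 was the highest library in 14 of them (51.9%). No test of a difference between these sets and the members was made, since all were chosen on the same values.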

How the data were processed

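RNA-seq libraries (3 EST, 3 DMSO) were grouped by the labelled treatment. The tools were Trimmomatic for trimming and Salmon 1.3.0 for quantification, per the submitters' processing notes (their options: not given in the sources used here). A deposited file holds, per the file headers, estimated counts of reads, not normalized, and TPM values, which the authors' Salmon run scaled to effective length and to 1 total in every library. It also holds lengths and effective lengths in bases, used as deposited. Estimated counts were rounded to whole numbers.

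Members were found on the deposited TPM and rounded counts. The members and lists were chosen with earlier results of these data known. The reference table held none of the 69491 tobacco identifiers, so the gene lists were not applied and no sequence is shown. Named genes are, by rule, the member with the most DMSO reads and the next one by median EST TPM.

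All entries were tested in R 4.3.3 with edgeR 4.0.16: filterByExpr (10 counts, 15 in total), TMM scaling, the robust quasi-likelihood test and Benjamini-Hochberg adjustment. The company-adjusted fit had treatment and company terms, so that its treatment term sets EST 1 against the DMSO libraries. The pooled fit had treatment alone, so company is mixed with treatment in it. The scripts were tested on simulated data. Count ratios carry exact Clopper-Pearson 95% intervals, which cover counting error only. The labels call the libraries biological replicates without saying whether each came from a culture of its own, so p-values reflect only how far these libraries vary, which may be technical.

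Both groups carry replicate numbers 1 to 3. Deviations of log2 CPM (prior count 2) from the group means correlated at 0.37, 0.13 and 0.32 for replicates 1, 2 and 3, all over the criterion of 0.1, so a further fit had the replicate number as a block. DMSO 2 correlated as well with EST 3 (0.32). DMSO 2 and 3 are alike, and with centring within groups the values for replicates 2 and 3 then follow from that of replicate 1. Alternatives were DESeq2 1.42.0, another scaling, no filter, effective-length offsets, whole-number entries only, each library left out, other limits of the rule and, chosen after seeing the data, DMSO 2 and 3 summed into 1 library.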

Additional observations from a re-analysis of the deposited data

How the results depend on the processing

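The number of members follows the limits: 202 became 428 with a ratio of 4, 102 with a ratio of 16 and 129 with at least 10 DMSO reads, and 201 to 422 with each library left out in turn (201 without DMSO 2, 422 without DMSO 1, 360 without EST 3). In the company-adjusted fit 197 to 202 members were called under each alternative that tests all of them, and 67 among whole-number entries, which hold 67 members. Without EST 1 that model could not be fitted. In the pooled fit the count was 67 among whole-number entries, 1 with DMSO 2 and 3 summed into 1 library, where 1 of all 35819 entries was called higher and the members' median log2 fold change was 5.72 (202 members by DESeq2 on the same sums), and 0 to 202 with each library left out. Members higher in IAB numbered 1 with DESeq2, 1 with effective-length offsets, 6 with the replicate block and 0 to 1 with a library left out, against 0. Members lower in IAB, 27 in all, numbered 42 with DESeq2, 5 with the replicate block, 15 with DMSO 2 and 3 summed, 8 among whole-number entries and 0 to 82 with a library left out. With the replicate block, both counts concern the ratio of EST to DMSO in replicates 2 and 3 against replicate 1, not levels within EST. For Nitab4.5_0015635g0010.1 the company-adjusted log2 fold change was 4.501 with no filter (edgeR adjusted p = 0.0501). In the pooled fit it was 4.43 with DMSO 2 and 3 summed (edgeR adjusted p = 0.0630) and 4.41 to 5.81 with a library left out. The edgeR adjusted p of that pooled value was 0.0692 without DMSO 2 and 0.0663 without DMSO 3. For Nitab4.5_0013087g0020.1 the pooled value was 7.17 with DMSO 2 and 3 summed (edgeR adjusted p = 0.0680) and 6.66 to 9.23 with a library left out. Its edgeR adjusted p was 0.0707 without DMSO 2 and 0.0752 without DMSO 3. The causes of the other shifts were not tested. Depth limits the ratios of the 36 members with 1 to 3 DMSO reads. Reads divided among entries that share sequence may limit the levels of members whose estimates are not whole numbers.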
